A study of Mus musculus with 6 samples.

Results

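The kinesin superfamily was described here as 48 of the 24411 genes in the deposited tables, taken by name: every gene whose symbol starts with Kif and a digit, together with Kifap3, Kifc1, Kifc2, Kifc3 and the kinesin light chains Klc1 to Klc4. They comprise 13 transport heavy chains (the Kif1, Kif3, Kif5, Kif13 and Kif21 groups), 5 accessory subunits of transport motors (Klc1 to Klc4 and Kifap3), 10 mitotic kinesins (Kif4, Kif11, Kif14, Kif15, Kif18a, Kif18b, Kif20a, Kif20b, Kif22 and Kif23) and 17 other kinesins. The other 3 names that the letters catch encode no motor: Kif1bp (now Kifbp), a protein that binds kinesins, the long noncoding RNA Kif16bos and the pseudogene Kif4-ps. RNA came from corpus callosum of B6 mice at postnatal day 4, cut by hand from frozen brain sections. The tract is filled by axons of upper-layer cortical neurons, and the question was what N6-methyladenosine (m6A), a methyl mark on RNA, contributes in growing axons. There were 3 wild-type (WT) libraries and 3 of genotype Mettl14 cKO, a conditional knockout of a subunit of the m6A-writing enzyme. The sources used here name no driver of the deletion and do not say whether each library came from its own animal, so a p-value here speaks of the spread among libraries, which may be technical.

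Kinesins are motor proteins that walk along microtubules. In neurons, where microtubules run the length of the axon, the transport motors carry vesicles, mitochondria and RNA granules toward the axon tip. Another group works on the spindle of dividing cells, where it separates the poles, moves chromosomes and builds the midzone at which the cell is cut, although members such as Kif11, Kif15, Kif23 and Kif4 are also known from neurons that no longer divide.

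Library totals ran from 670462 to 1268430 expected counts, the estimated numbers of fragments per gene. The replicate 2 library of each genotype was the deepest and had the shortest fragments, a mean of 304.3 bases in WT against 292.7 in cKO against 332.4 to 350.5 in the other libraries. Mettl14 itself had 11, 8 and 5 counts in WT against 2, 7 and 2 in cKO, pooled 1.79-fold lower (95% counting interval 0.842 to 4.04). At this depth the targeted gene therefore does not check the labels. Xist, which silences an X chromosome in female cells, was at 0 in every WT library and had 2323 to 4618 counts in the cKO libraries, while the Y-linked Eif2s3y had 51 to 80 counts in WT against 0 in cKO. Sex and genotype thus cannot be told apart, and this touches Kif4, which lies on the X chromosome. The tissue label speaks of axons, yet markers of glia were present in WT: 8 oligodendrocyte markers summed to 2535.9 to 4121.9 CPM (library-scaled counts, made comparable between libraries) there and to 2.0 to 10.8 CPM in cKO.

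The promoters of the members on which the results turn are shown first, since their letters differ between the mitotic and the transport genes. RefSeq promoters (GRCm38.p6, 250 bases before to 50 after the annotated start) were at hand for 9 of the 10 mitotic genes and for 9 of the 13 transport genes, the latter with 11 starts. The CHR motif (TTTGAA or TTTAAA on either strand, so also TTCAAA), to which the DREAM and MuvB complexes of cell cycle genes are known to bind, stood in 8 of the 9 mitotic promoters (88.9%) and in 1 of the 11 transport promoters (9.09%). Of all 32851 promoters of RefSeq, 27.6% held it. Within 30 bases of the start, a distance chosen after the positions were seen, it stood in 77.8% of the mitotic promoters, in 0 of the transport promoters and in 5.38% of all promoters. The CCAAT box (CCAAT, or ATTGG on the other strand), the site of the factor NF-Y, stood in 66.7%, 36.4% and 37.4%. The 4 transport promoters that hold it belong to Kif1b, counted at more than 1 start, Kif3a and Kif3b. The windows run from 100 bases before to 29 bases after the first base of the transcript, 5′ to 3′ on the gene's strand. Capitals mark a CHR motif or a CCAAT box. The first 4 are mitotic genes, and the transport genes Kif1a and Kif5c follow for contrast.
Kif22, chr7:127042391-127042520, minus strand: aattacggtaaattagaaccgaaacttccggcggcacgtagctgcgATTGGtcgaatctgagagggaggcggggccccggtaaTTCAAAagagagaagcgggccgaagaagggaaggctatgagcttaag
Kif23, chr9:61946770-61946899, minus strand: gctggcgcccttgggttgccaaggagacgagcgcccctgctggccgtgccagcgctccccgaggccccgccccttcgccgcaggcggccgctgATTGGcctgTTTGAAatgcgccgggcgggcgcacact
Kif4, chrX:100625965-100626094, plus strand: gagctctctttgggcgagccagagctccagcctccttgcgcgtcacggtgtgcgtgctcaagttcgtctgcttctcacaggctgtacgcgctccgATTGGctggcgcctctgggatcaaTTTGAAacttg
Kif15, chr9:122950981-122951110, plus strand: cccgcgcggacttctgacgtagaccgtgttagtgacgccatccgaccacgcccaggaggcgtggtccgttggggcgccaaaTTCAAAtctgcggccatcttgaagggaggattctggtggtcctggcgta
Kif1a, upstream start, chr1:93101845-93101974, minus strand: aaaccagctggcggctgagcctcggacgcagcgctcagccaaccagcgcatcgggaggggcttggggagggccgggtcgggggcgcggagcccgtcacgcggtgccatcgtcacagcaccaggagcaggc
Kif1a, downstream start, chr1:93082451-93082580, minus strand: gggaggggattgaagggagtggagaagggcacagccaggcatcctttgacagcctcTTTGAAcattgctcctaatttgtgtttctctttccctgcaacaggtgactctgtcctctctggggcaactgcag
Kif5c, chr2:49619186-49619315, plus strand: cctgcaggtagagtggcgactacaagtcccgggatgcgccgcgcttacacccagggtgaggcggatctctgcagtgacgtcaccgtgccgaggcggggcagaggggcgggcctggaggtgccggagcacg
In Kif22 the CHR motif starts 17 bases before the annotated start and in Kif15 19 bases before it. In Kif23 it starts 2 bases and in Kif4 19 bases after it. In Kif22, Kif23 and Kif4 a CCAAT box precedes the motif within the window. Neither the Kif5c window nor that of the upstream Kif1a start holds either motif, and the single CHR match among the transport genes lies 44 bases before the downstream Kif1a start. Among the other mitotic genes the match nearest to the start lay 19 bases before it in Kif11 and 42 before it in Kif14, 3 bases after it in Kif18b and 7 after it in Kif20b. Kif18a held neither motif in its window. Such matches describe the letters only and show no binding.

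**Figure D1:**
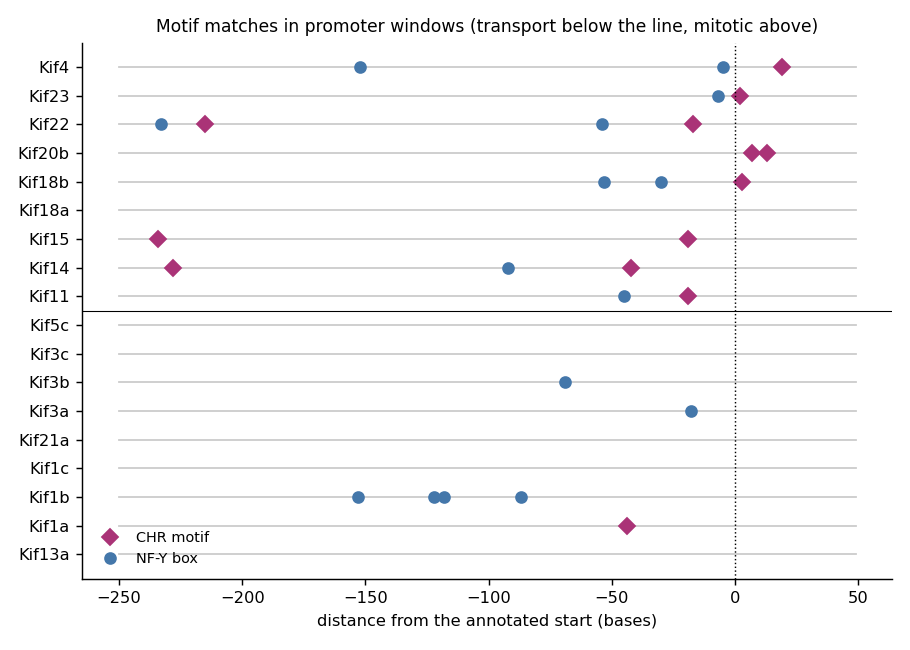
Matches of the CHR motif (diamonds) and the NF-Y box (circles) by distance in bases from the annotated start. Each gene has 1 line, with transport genes below the horizontal rule and mitotic genes above it. All starts of a gene share its line, so the same box can appear at more than 1 distance. CHR matches sit close to the start in 7 of the 9 mitotic genes and in none of the 9 transport genes.

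Of the 48 genes, 25 passed the filter on low counts and were tested: 12 transport chains, 4 subunits, 5 mitotic kinesins, 3 other kinesins and Kif1bp. With edgeR's quasi-likelihood test and Benjamini-Hochberg adjustment over the 5918 genes tested, 0 were called higher and 0 lower in cKO at an adjusted p below 0.05. Of all tested genes, 0.49% were called higher and 0.422% lower. At an unadjusted p below 0.05, 2 kinesin genes were higher (Kif3b and Kif5c) and 7 lower (Kif22, Kif23, Kif4, Kif20a, Kif15, Kif1a and Kifc3), against 7.16% and 5.41% of all tested genes. The lower count was 3 without cKO replicate 1 and 4 without cKO replicate 3. The higher count was 0 without WT replicate 2 or WT replicate 3, 1 when either replicate 1 library or cKO replicate 3 was left out, and 3 without cKO replicate 2. With a filter of 1 CPM in 3 libraries, 40 kinesin genes were tested and 3 were higher and 12 lower at that p; without a filter, 44 were tested, with 4 and 10. The 7 lower genes include all 5 tested mitotic kinesins, which passed the filter mainly through WT, where they are high, so this count does not speak for the group as a whole. DESeq2 on the same counts called 1 higher (Kif3b, adjusted p = 0.0217) and 4 lower (Kif22, Kif4, Kif1a and Kif23, with adjusted p = 0.0224, 0.034, 0.0359 and 0.0373), where it called 4.22% of all tested genes higher and 3.02% lower. limma-voom, and limma on log2(TPM + 1), called 0. Among the 25 tested kinesin genes, the groups of libraries did not overlap for 8 lower and 2 higher ones, against 9.45% and 10.4% of all tested genes. The 8 include the same 5 mitotic kinesins, so this count has the same limit.

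**Figure D2:**
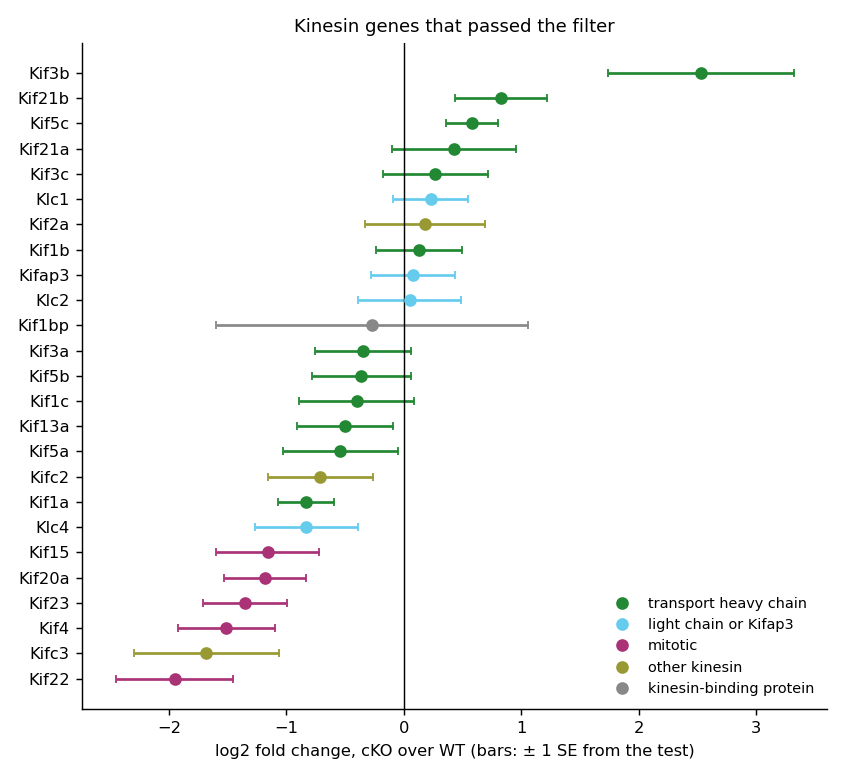
Log2 fold change of cKO over WT for the 25 kinesin genes that passed the filter, with bars of 1 SE from edgeR's test, coloured by role. The 5 mitotic kinesins shown lie between -1.95 and -1.16, while the 12 transport chains lie on both sides of 0. These 5 passed the filter mainly through WT, and the mitotic kinesins below the filter are not shown.

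The mitotic kinesins were lower in cKO as a group. Their summed level was 178.6, 136.6 and 175.8 CPM in WT replicates 1 to 3 and 69.9, 64.1 and 55.2 CPM in cKO, a mean of 163.6 ± 23.5 (SD, n = 3) against 63.0 ± 7.43 (SD, n = 3). The lowest WT library stood above the highest cKO library, and the ratio of the means was 2.6-fold lower in cKO. Per transcript length the sum was 71.2, 61.6 and 64.9 TPM (a length-scaled share of the library) in WT against 23.6, 22.9 and 24.3 TPM in cKO. All 10 mitotic genes had a lower pooled level in cKO, and their median log2 fold change, fitted without the filter, was -1.43 beside 0.02 over all genes fitted that way. The level is low: the sum rests on 151 to 170 counts per library in WT against 39 to 64 in cKO. In bulk tissue, fewer cells of a type and less RNA per cell cannot be told apart.

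Kif22, a chromokinesin that pushes chromosome arms along the spindle, had 15, 24 and 13 counts in WT against 3, 7 and 1 in cKO. Every WT library was above every cKO library, at 15.1 to 19.3 CPM against 1.41 to 7.01 CPM. Its log2 fold change was -1.95 (SE 0.50, edgeR adjusted p = 0.2). Kif23, the motor of the centralspindlin complex of the midzone, had 24, 35 and 30 counts in WT against 9, 9 and 10 in cKO, again without overlap. The log2 fold change came to -1.35 (SE 0.36, edgeR adjusted p = 0.208). Kif4, a chromokinesin that also acts at the midzone with Prc1, had 25, 27 and 27 counts in WT against 10, 9 and 4 in cKO. The groups did not overlap, and the log2 fold change was -1.51 (SE 0.41, edgeR adjusted p = 0.224). No count was assigned to the pseudogene Kif4-ps, whose reads RSEM would have to divide from those of Kif4 by estimate. Kif20a, which brings the chromosomal passenger complex to the midzone, had 27, 27 and 28 counts in WT against 10, 11 and 9 in cKO. Its groups stood well apart, with -1.18 on the log2 scale (SE 0.35, edgeR adjusted p = 0.243). Kif15, which helps to hold the spindle poles apart, had 34, 28 and 23 counts in WT against 7, 19 and 7 in cKO. The cKO replicate 2 library came closest to WT, without overlap, and the log2 fold change was -1.16 (SE 0.44, edgeR adjusted p = 0.352). These 5 passed the filter mainly through WT, where each had at least 10 counts in every library; in cKO, Kif22 reached 10 counts in 0 libraries, Kif23, Kif4 and Kif15 in 1 and Kif20a in 2.

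The other 5 mitotic kinesins did not pass the filter on low counts and are given as pooled counts with 95% counting intervals, which cover counting error only. Kif20b, needed for the final cut between daughter cells, had 7, 11 and 11 counts in WT against 4, 2 and 1 in cKO, 3.39-fold lower (interval 1.45 to 9.17). Kif14, a midzone motor that binds Prc1, had 7, 4 and 6 against 0, 1 and 2 counts, 4.64-fold lower (1.34 to 24.7). In both genes the groups were apart. Kif18b, which shortens microtubules at their ends, had 2, 5 and 6 against 0, 1 and 1 counts, 5.32-fold lower (1.2 to 48.5). For Kif11, the motor that drives the poles apart, 10, 4 and 5 counts stood against 6, 1 and 3, and the interval of its 1.55-fold ratio included no difference (0.688 to 3.74). The same held for Kif18a, which aligns chromosomes, at 8, 5 and 2 against 3, 4 and 1 counts (1.53-fold, 0.611 to 4.18).

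**Figure D3:**
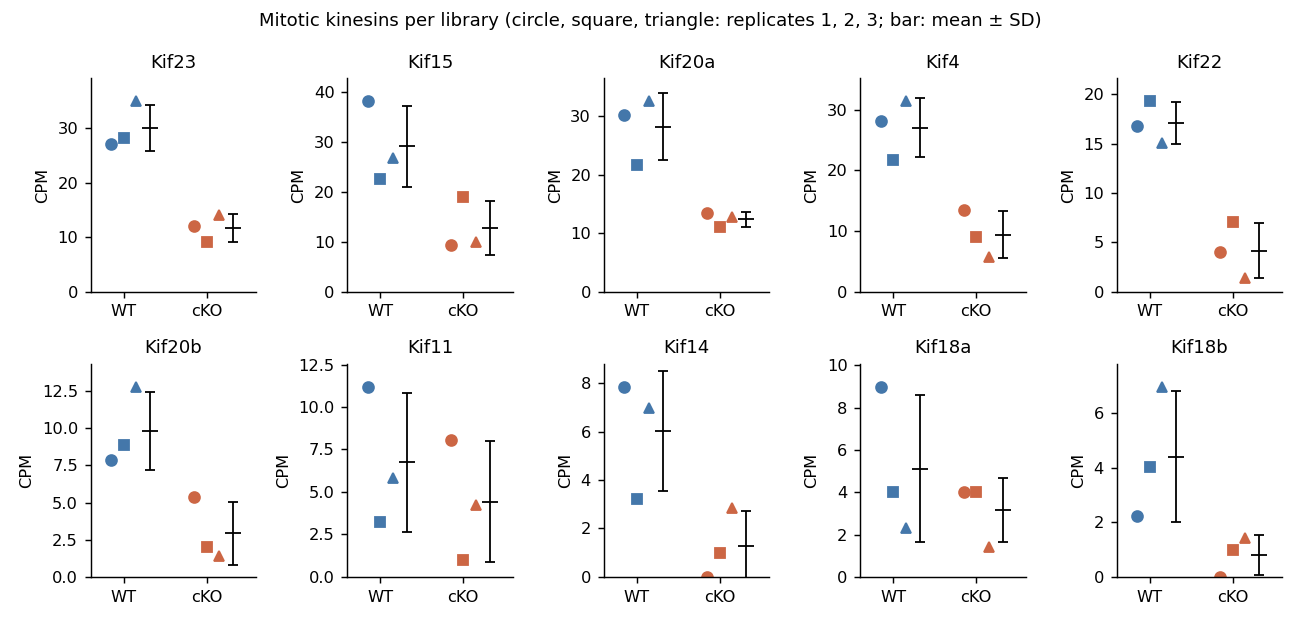
CPM of the 10 mitotic kinesins in each library, 1 panel per gene with its own axis from 0; circles, squares and triangles are replicates 1, 2 and 3, and bars give the mean ± SD. WT and cKO do not overlap for Kif4, Kif14, Kif15, Kif18b, Kif20a, Kif20b, Kif22 and Kif23, and overlap for Kif11 and Kif18a. Of all tested genes, 9.45% were lower in cKO without overlap. That share does not cover Kif14, Kif18b and Kif20b, which were below the filter. Kif4, Kif15, Kif20a, Kif22 and Kif23 passed it mainly through WT.

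Outside the 10, Kif2c and Kifc1 also serve dividing cells, and both lay below the filter. Kif2c, which strips tubulin from microtubules at the centromere, had 12, 9 and 10 counts in WT against 4, 2 and 2 in cKO, 3.17-fold lower (1.43 to 7.98). Kifc1, a minus-end motor of the spindle, had 2, 8 and 1 counts in WT against 1, 0 and 0 in cKO, 9.0-fold fewer pooled (1.31 to 387.4). In Kif2c the groups were apart, while in Kifc1 they overlapped and 8 of the 11 WT counts came from replicate 2. With both added, the mitotic sum was 2.66-fold lower in cKO. Among 25 listed partners of these motors on the spindle, 16 were tested and 0 were called in either direction with edgeR. At an unadjusted p below 0.05, 5 were lower and 0 higher, against 5.41% and 7.16% of all tested genes. The 25 summed to 1169.9 to 1588.1 CPM in WT against 472.4 to 960.9 CPM in cKO. Against that direction, Plk1 and Ccnb1, a kinase and a cyclin of mitosis, were at 0 in every WT library but not in cKO. Ckap2 was at 0 in every cKO library but not in WT. Of the 16, 15 had a negative log2 fold change, with a median of -1.37 beside 0.07 over all tested genes. This covers only genes that passed the filter, which a gene low in cKO can do through WT. It does not speak for the 25 as a whole. The smallest p-values were those of Bub1, a kinase of the spindle checkpoint (log2 fold change -2.11, SE 0.42, edgeR adjusted p = 0.115), and Cdca8, a subunit of the passenger complex that Kif20a moves (-2.04, SE 0.44, edgeR adjusted p = 0.144). Bub1 passed the filter through WT, with 29, 24 and 31 counts there against 6, 5 and 5 in cKO. Markers of dividing cells moved with the mitotic kinesins. The 13 proliferation markers summed to 2025.0 to 2937.0 CPM in WT against 306.9 to 1202.1 CPM in cKO; 9 were tested, 1 was called lower and the median log2 fold change was -1.27, with Tyms at 0 in both groups and Cdc20 at 0 in cKO. So did markers of glial cells: the 10 astrocyte and radial glia markers summed to 9229.4 to 11703.2 CPM in WT against 3196.9 to 3584.6 CPM in cKO (2 of 7 tested called lower). The 7 markers of oligodendrocyte precursors summed to 3896.6 to 4561.1 CPM and 546.0 to 1314.2 CPM (1 of 4 tested called lower), with Sox10 and Matn4 at 0 in cKO. Of the oligodendrocyte markers all 6 tested were called lower, and Mog, Mag, Enpp6 and Myrf were at 0 in cKO. With 2.0 to 10.8 CPM summed over the whole list in cKO, these 6 passed the filter through WT alone. Counts and medians of the other marker lists also cover tested genes only. Of all tested genes, 0.422% were called lower with edgeR. Microglia markers, at 64.0 to 544.6 CPM in WT against 40.3 to 294.3 in cKO, and endothelial markers, at 130.4 to 382.3 and 56.5 to 179.2, overlapped between the groups in their sums, with Tmem119 and Cldn5 at 0 in all libraries. Of the microglia markers 4 were tested, 0 were called or had an unadjusted p below 0.05 with edgeR, and the median log2 fold change was -0.52. Of the endothelial markers 4 were tested and 0 called with edgeR, but all 4 had a negative log2 fold change, 3 of them with an unadjusted p below 0.05, and the median was -1.54. Of all tested genes, 5.41% were lower at that unadjusted p. The part of these cells in the lower mitotic kinesin level was not tested.

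The transport heavy chains showed no common direction. Their sum was 11076.5, 8713.7 and 11342.5 CPM in WT against 7883.2, 6553.6 and 11358.5 CPM in cKO, a mean of 10377.6 ± 1447.1 (SD, n = 3) against 8598.5 ± 2481.0 (SD, n = 3). The groups overlapped, since cKO replicate 3 was as high as the highest WT library. Of the 12 tested chains 6 had a positive and 6 a negative log2 fold change, with a median of -0.11. With Kif13b, the member below the filter, the median over all 13 fitted without it was 0.12. One gene dominated the sum: without Kif1a it was 3685.1, 3099.0 and 4056.7 CPM in WT against 4275.7, 3787.1 and 6315.8 in cKO, a ratio of means 1.33-fold higher in cKO, with groups that overlapped. For each 100 CPM of transport chains there were 1.61, 1.57 and 1.55 CPM of mitotic kinesins in WT against 0.887, 0.977 and 0.486 in cKO, 2.01-fold less. Leaving Kif1a out of the transport sum, the values were 4.85, 4.41 and 4.33 against 1.64, 1.69 and 0.873, 3.23-fold less.

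**Figure D4:**
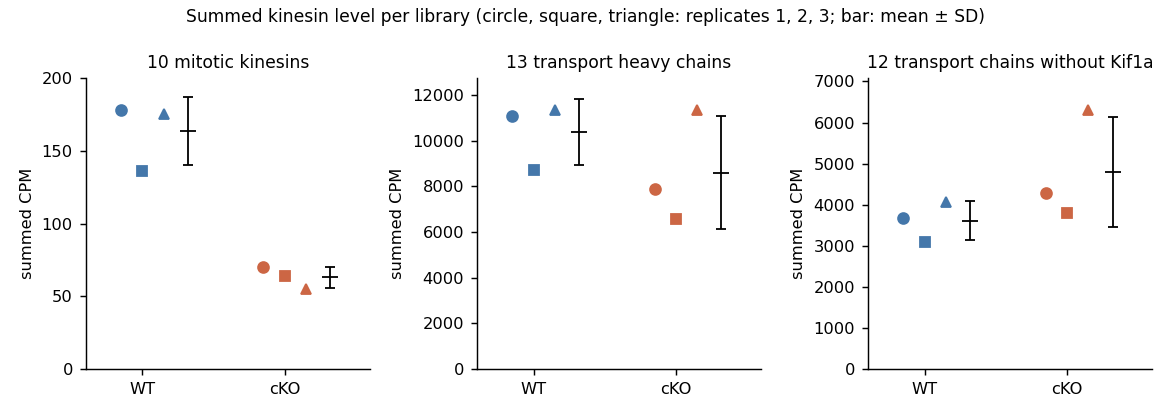
Summed CPM per library of the 10 mitotic kinesins, the 13 transport heavy chains and the 12 transport chains without Kif1a, each axis from 0, with the mean ± SD as bars. The mitotic sums of WT (136.6 to 178.6) and cKO (55.2 to 69.9) are apart, and both transport sums overlap.

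Kif1a, the kinesin-3 motor that carries precursors of synaptic vesicles and dense core vesicles, was the most abundant kinesin by TPM in both groups. Among all genes it ranked 156 by mean TPM in WT against 246 in cKO. It had 6581, 6990 and 6259 counts in WT against 2683, 2764 and 3565 in cKO, or 7391.4, 5614.7 and 7285.8 CPM against 3607.5, 2766.5 and 5042.7 CPM. Every WT library was higher than every cKO library. The log2 fold change was -0.83 (SE 0.24), or 1.78-fold lower, with an edgeR adjusted p = 0.238, while DESeq2 called it. Kif1a made up 64.2%, 62.8% and 62.3% of all transport chain TPM in WT against 43.5%, 39.6% and 43.2% in cKO, a quantity chosen after its values were seen. Transcripts of 8158 and 8267 bases held most of its counts in every library. Another listed transcript, of 8243 bases, had 0 counts in the WT libraries and in cKO replicate 1, 13.7 in cKO replicate 2 and 696.5 in cKO replicate 3, where it was 19.5% of the Kif1a TPM. Kif1b, which carries mitochondria and synaptic vesicle precursors, stood at 749.1, 808.1 and 1222.2 CPM in WT against 757.0, 758.7 and 1516.4 CPM in cKO, and the groups overlapped. Within the Kif1 family Kif1a took 91.4%, 88.7% and 87.2% of the TPM in WT against 84.8%, 80.7% and 79.4% in cKO. Kif1b took 7.44%, 10.3% and 11.8% against 14.2%, 17.9% and 19.2%. Both shares were apart between groups, with p = 0.1 in a two-sided exact permutation test, the smallest p that 3 against 3 libraries allow, and 0.243 after adjustment over the 17 paralog shares tested. The shares of a family are tied, since a rise in 1 lowers the rest, so these are not separate results. Mirrored pairs are also counted among the 17. Kif1c, the least abundant of the family, overlapped between the groups at 50.6 to 76.4 CPM in WT against 35.0 to 72.1 CPM in cKO.

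Kif5a, Kif5b and Kif5c are the heavy chains of kinesin-1, the motor of mitochondria, vesicles and RNA granules in axons. They are alike in sequence, and RSEM divides the reads they share by estimate. Kif5c was the most abundant and had 1229, 1238 and 1262 counts in WT against 1358, 1717 and 1545 in cKO, or 1380.3, 994.4 and 1469.0 CPM against 1825.9, 1718.6 and 2185.4 CPM. All 3 cKO libraries were above all WT libraries on both scales. Its log2 fold change was 0.58 (SE 0.22), or 1.49-fold higher, with an edgeR adjusted p = 0.359. Under upper-quartile scaling the log2 fold change of Kif5c was 0.29 (SE 0.49, edgeR unadjusted p = 0.571). Whichever single library was left out, its unadjusted edgeR p was above 0.05, at 0.052 to 0.119. Kif5a had 140, 243 and 96 counts in WT against 73, 75 and 103 in cKO, and Kif5b had 169, 159 and 180 against 99, 134.7 and 101. On the CPM scale both overlapped between the groups. As a share of the family's TPM, Kif5c took 75.0%, 73.5% and 78.3% in WT against 85.5%, 86.6% and 84.7% in cKO, a difference of 9.98 percentage points. Kif5a lay within 8.98% to 15.7% in WT against 5.7% to 8.96% in cKO, and Kif5b within 10.8% to 12.8% and 6.33% to 7.74%. None of the 3 shares overlapped between groups (exact permutation p = 0.1 each, adjusted 0.243), although for Kif5a the gap was only that between 8.98% and 8.96%. A larger Kif5c share lowers the other shares, so these are not 3 separate results.

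**Figure D5:**
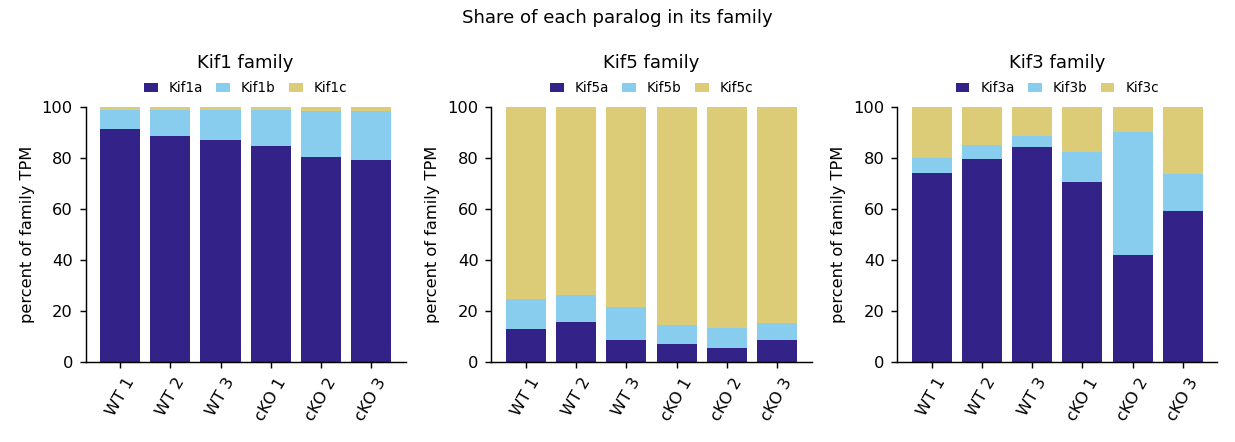
Share of each paralog in the TPM of its family, in percent, stacked to 100 for each of the 6 libraries, for the Kif1, Kif5 and Kif3 families. Kif5c takes 73.5% to 78.3% in WT against 84.7% to 86.6% in cKO, Kif1b takes 7.44% to 11.8% in WT against 14.2% to 19.2% in cKO, and Kif3b reaches 48.4% in cKO replicate 2.

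The kinesin-1 light chains, which bind cargo, and Kifap3, which joins cargo to kinesin-2, showed no common direction either. Together they were at 1406.2, 1051.5 and 1053.5 CPM in WT against 1522.1, 1367.4 and 942.1 CPM in cKO, with overlap. Klc1, the main light chain by TPM, had 522, 650 and 311 counts in WT against 512, 570 and 328 in cKO (log2 fold change 0.23, SE 0.32, edgeR adjusted p = 0.859). Kifap3 had 661, 594 and 532 against 589, 748 and 282 counts (0.08, SE 0.36, edgeR adjusted p = 0.969), and Klc2 43, 45 and 32 against 22, 37 and 42 (0.05, SE 0.44, edgeR adjusted p = 0.985). In Klc1, Klc2 and Kifap3 the sign turned under upper-quartile scaling, so no direction is given. Klc4 was at 23, 20 and 28 counts in WT against 9, 10 and 14 in cKO, and Klc3 had at most 3 counts in any library.

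Kinesin-2 pairs Kif3a with Kif3b or Kif3c and serves axonal vesicles and cilia. Kif3a, the leading chain by TPM in each WT library, had 141, 195 and 162 counts in WT against 118, 125 and 78 in cKO, with levels that overlapped on the CPM scale. Kif3b had 12, 14 and 9 counts in WT against 20, 149 and 20 in cKO. The cKO libraries were all higher, but cKO replicate 2 was far above the others. The log2 fold change was 2.53 (SE 0.79, edgeR adjusted p = 0.263), and 1.22 without that library. Its share of the family TPM was 6.08%, 5.52% and 4.53% in WT against 11.6%, 48.4% and 14.7% in cKO. Kif3c overlapped, at 31.4 to 53.9 CPM in WT against 36.0 to 62.2 CPM in cKO.

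Kif21b, a kinesin-4 motor that also restrains microtubule growth, had 686, 791 and 532 counts in WT against 798, 663 and 1318 in cKO (log2 fold change 0.83, SE 0.39, edgeR adjusted p = 0.456). Only cKO replicates 1 and 3 exceeded every WT library on the CPM scale. Its paralog Kif21a had 62, 55 and 65 counts against 49, 59 and 92, Kif13a, which moves endosomal carriers, 50, 43 and 38 against 28, 24 and 24, and Kif13b 9, 5 and 7 against 11, 4 and 17. On the CPM scale all of these overlapped.

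Neuron markers stood beside the transport chains as follows. The 12 markers summed to 7215.6 to 9009.9 CPM in WT against 12194.5 to 15504.3 CPM in cKO. Of them 10 were tested and 0 called with edgeR. At an unadjusted p below 0.05, 4 were higher and 0 lower, against 7.16% and 5.41% of all tested genes. Of the 10, 8 had a positive and 2 a negative log2 fold change, with a median of 0.48, and Nefm was at 0 in cKO. Between the genotypes, Kif1a was lower and Kif5c higher in cKO, where the summed neuron markers were higher. Within WT, the marker sum and both of these kinesins were lowest in replicate 2. Within cKO, the marker sum was lowest in replicate 3 (12194.5 CPM), where both Kif1a and Kif5c were highest. The part of the tissue's cell makeup in the levels of either was not tested. Of 38 listed adaptors, cargo linkers and regulators of transport kinesins, 36 were present and 34 tested, with 0 called by edgeR. At an unadjusted p below 0.05, 4 were higher and 1 lower, against 7.16% and 5.41% of all tested genes. Their median log2 fold change was 0.05. Jakmip1, which links kinesin-1 to cargo, had 16, 47 and 18 counts in WT against 219, 379 and 101 in cKO (log2 fold change 3.4, SE 0.61, edgeR adjusted p = 0.0852). Kidins220, a membrane scaffold carried by kinesin-1, had 73, 50 and 47 counts in WT against 479, 485 and 127 in cKO (2.89, SE 0.61, edgeR adjusted p = 0.141). In both, every cKO library was above every WT library, and the adjusted p missed the threshold.

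The other kinesins were mostly sparse. Kif2a, which shortens microtubules and prunes axon branches, had 84, 56 and 54 counts in WT against 52, 59 and 71 in cKO (log2 fold change 0.18, SE 0.51, edgeR adjusted p = 0.948), with a sign that turned under upper-quartile scaling. Kifc2, a minus-end directed motor of neurons, had 27, 34 and 24 against 15, 23 and 6 counts (-0.71, SE 0.45, edgeR adjusted p = 0.589), apart on the CPM scale. Kifc3, another minus-end directed motor, had 30, 125 and 22 counts in WT against 11, 18 and 12 in cKO. The groups did not overlap, and the log2 fold change was -1.68 (SE 0.62, edgeR adjusted p = 0.334), and -0.83 without WT replicate 2. Kif19a, which sets the length of cilia, had 2, 5 and 4 counts in WT against 0 in cKO, at least 3.0-fold lower with 3 counts over the cKO group as the floor. Kif26b had 0 counts in WT against 1, 1 and 5 in cKO, at least 2.85-fold higher with the same floor over WT. Kif9 had 5, 3 and 2 against 0, 1 and 0 counts. Kif12, Kif2b, Kif16bos and Kif4-ps were at 0 in every library. The rest of the 17, namely Kif6, Kif7, Kif16b, Kif17, Kif24, Kif26a and Kif27, had at most 9 counts in any library, except for Kif7.

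Several members were high in a replicate 2 library alone, the libraries with shorter fragments and greater depth. Kif7, the ciliary kinesin of Hedgehog signalling, had 4, 3 and 3 counts in WT against 5, 38 and 3 in cKO. Kif1bp had 24, 272 and 17 counts in WT against 13, 189 and 9 in cKO, so that both replicate 2 libraries stood above the other 4 whatever their genotype. In Kif5a all 243 counts of WT replicate 2 went to a transcript of 6311 bases, which took 5.58% to 18.1% of the Kif5a TPM in the other libraries. Kif3b in cKO and Kifc3 in WT, given above, were also highest there. What sets these libraries apart was not tested.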

How the data were processed

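Corpus callosum RNA of 6 libraries was analysed from 1 table of transcripts per library. Per the submitters' processing notes, STAR 2.7.10b and RSEM 1.3.3 were used with build mm10; no annotation release or strand setting is given in the sources used here, and the kit that the labels name does not mark strand. Per the file headers, the authors deposited expected counts, RSEM's estimates of fragments for each transcript. The TPM values that the authors deposited, per the file headers, correct these for length and depth. The effective length, among the other deposited columns, gave only each library's mean fragment length. No step before these tables was repeated.

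Expected counts and TPM were summed per gene; counts were rounded. edgeR 4.0.16 (quasi-likelihood, TMM, filterByExpr with a minimum count of 10, R 4.3.3) compared cKO with WT over all 6 libraries without covariates, and p-values were adjusted over all 5918 genes tested (Benjamini-Hochberg, called below 0.05). The SE was worked back from the F statistic and the log2 fold change, so it restates the p-value. CPM uses the same scaling, where 1 count equals 0.803 to 1.41 CPM and 3 counts, the limit that a count of 0 allows, 2.41 to 4.24 CPM. Members below the filter have pooled counts scaled to library size with exact 95% intervals. Shares were compared by exact permutation (scipy 1.17.1). The fit was tested on simulated counts. Members and lists were chosen with earlier results of these data known. Every member may be named; tests are given for members with an unadjusted p below 0.05 or among the 3 tested ones of each set with the highest TPM. From the adaptor and spindle lists the 2 genes with the smallest p are named. As alternatives the fit was repeated with RLE or upper-quartile scaling, with other filters, with DESeq2 1.42.0 and limma 3.58.1 (voom, and log2 of TPM plus 1), on unrounded counts, with a replicate block and without each library in turn; fits without both replicate 2 libraries, with these as a batch term, on these alone, and without Kif1a were added after seeing the data.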

Additional observations from a re-analysis of the deposited data

How the results depend on the processing

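With DESeq2, 1 kinesin gene was called higher and 4 lower where edgeR called 0 and 0; across the tested genes DESeq2 called 250 higher and 179 lower against 29 and 25. Without single libraries the counts of called kinesin genes stayed at 0, while those over all genes ran from 0 to 28 higher and 0 to 14 lower. Under upper-quartile scaling the tested genes had a median of -0.22 in place of 0.07; there the log2 fold change was -0.11 for Kif2a, -0.34 for Kifap3, -0.09 for Klc1 and -0.19 for Klc2, and the mitotic sum -1.71 in place of -1.38. On log2(TPM + 1) Kifap3 was at -0.02 and Klc2 at -0.05, and without both replicate 2 libraries Kifap3 was at -0.18. Leaving out 1 library gave -0.05 to 0.50 for Kif2a, -0.16 to 0.34 for Kifap3, -0.27 to 0.22 for Klc2 and -1.51 to -1.28 for the mitotic sum. In the replicate 2 libraries alone the mitotic sum was at -1.09 and the Kif5c share differed by 13 points. The log2 ratio of the transport sum turned from -0.27 to 0.41 without Kif1a, which holds 64.2% to 66.7% of that CPM sum in WT and 42.2% to 45.8% in cKO. Other causes were not tested. Of the fold changes of single genes under alternatives, 235 kept direction and side of the threshold, 15 turned and 5 passed it. Replicate numbers 1 and 3 did not pair the libraries: their correlations of deviations were 0.064 and 0.162, beside 0.105 and 0.2 between unlike numbers. The replicate 2 libraries did share deviations (0.462). Each correlated negatively with replicates 1 and 3 of the other genotype (-0.309 to -0.141). Deviations were taken from the group mean, so these negative values follow in part from the positive one and are no separate observation. With a replicate block 0 kinesin genes were called higher and 0 lower, and 1 and 0 of all genes. The filter on low counts left 23 of the 48 genes without a test, with counts and for some a pooled fold.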

Other observations

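The shares of a gene's listed transcripts differed between libraries in 2 transport chains, picked after their values were seen. A Kif21a transcript of 6443 bases held 52.8%, 59.9% and 45.3% of the Kif21a TPM in WT and 87.2%, 76.9% and 63.0% in cKO, without overlap. The Kif1b transcript of 10099 bases held 69.8%, 93.8% and 90.8% of the Kif1b TPM in WT and 47.7%, 91.8% and 42.5% in cKO, with the replicate 2 library the highest of each group. RSEM divides reads between transcripts by estimate, and these shares were not tested.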
